A study of Mus musculus with 12 samples.

Results

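The chaperone families Hsp70, Hsp90, DnaJ and chaperonin were compared between the gastrocnemius muscles of mini-muscle and regular-muscle mice. The members were the genes whose symbol in the array annotation begins with Hspa, Hsp90, Dnaja, Dnajb, Dnajc or Cct and a digit, together with Hsph1, Hspd1 and Hspe1, read from probe sets annotated to a single gene. The rule found 71 genes among the 18194 genes with such a probe set, and 57 of them lay above the dim limit and were tested. Both groups held male mice of generation 37, aged 84 days on average (79 to 86), from lines in which high voluntary wheel running had been selected for. The 6 mini-muscle mice came from line 3, and RNA of the left and right muscles of each animal was pooled. The 6 regular-muscle mice came from line 8, and 1 limb was used from each. Each group is therefore a single line, and phenotype, line and pooling of limbs divide the arrays in the same way and cannot be told apart. Mini-muscle is an inherited phenotype of this selection experiment in which the hindlimb muscles are strongly reduced in mass.

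Hsp70 proteins bind and release unfolded stretches of other proteins in a cycle driven by ATP. DnaJ proteins deliver clients and start the ATP step, nucleotide exchange factors end it, and Hsp90 takes over a subset of clients such as kinases and myosin. The chaperonins are closed chambers: Cct folds actin and tubulin in the cytosol, and Hspd1 with its lid Hspe1 folds proteins imported into mitochondria. In skeletal muscle the cytosolic chaperones assist myosin assembly and rise after heat or exercise under heat shock factors, whereas the chaperones of the endoplasmic reticulum (ER) are induced by the unfolded protein response.

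Values are log2 array intensities. A difference is the mini-muscle mean less the regular-muscle mean, so a positive one is higher in mini-muscle. A gene was called when its limma p, adjusted by the Benjamini-Hochberg method over all 9097 genes tested, was under 0.05. Members were named by family, and DnaJ members that were not called are named where the difference exceeded 0.3 in size. The level of one gene cannot be set against that of another, because probe sets differ in brightness for the same amount of RNA. In whole muscle, a change in RNA per fibre and a change in the share of cells or fibres that hold the RNA cannot be told apart.

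Of the 57 tested members 21 were called, 13 higher and 8 lower in mini-muscle. Over all genes tested, 26.7% were called, 14.9% higher and 11.8% lower. The members' share of 36.8% therefore lay above the background, with no test of the list run. The median difference of the tested members was 0.17, against 0.03 over all genes, while their median size of difference was 0.22, equal to that of all genes. The groups did not overlap in 5 members, namely Hspa2, Dnajb4 and Cct4, which were higher, and Dnajb9 and Dnajc3, which were lower. Over all genes, 13.0% had groups that did not overlap. The calls divided by compartment: of 34 members of the cytosol, nucleus or membranes facing the cytosol 11 were higher and 2 lower, of 14 ER members 0 were higher and 4 lower, and of 9 mitochondrial members 2 were higher and 2 lower. The medians of these compartments were 0.20, -0.01 and 0.01, and the shares called 38.2%, 28.6% and 44.4%. The ER share lay near the 26.7% of all genes, and 7 ER members had positive and 7 negative differences. With each array centred on its own median, 9 members were higher and 3 lower, of which 2 lower members were in the ER. Centring cost 9 of the 21 called members their call: Hspa8, Hspa5, Hspd1, Dnaja2, Dnajc3, Dnajc15, Dnajc21, Cct3 and Cct8. With all probe sets of a gene averaged, 10 members were higher and 3 lower. Of 13 ER members tested 3 were then higher and 1 was lower, so the ER direction depends on which probe sets are read. Here and below, such averages take in any probe sets of the gene under the dim limit as well as the brighter ones.

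**Figure D1:**
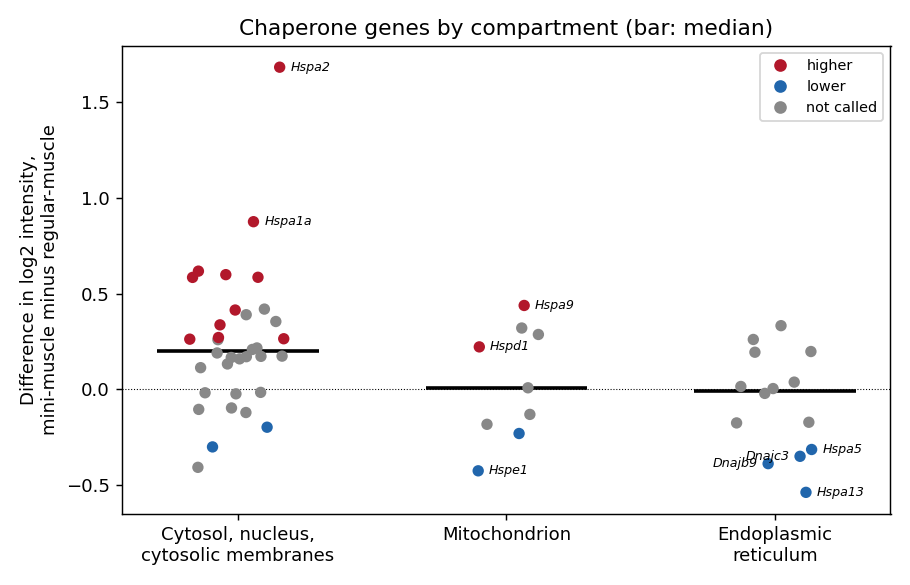
Difference in log2 intensity (mini-muscle minus regular-muscle, y axis) of the 57 tested chaperone genes, each a point, by compartment (x axis), with a bar at each median. The 4 ER genes called by their brightest probe sets lie below 0, and 11 of the 13 called genes of the cytosol lie above it.

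Markers of fibres and other cell types give the setting. The 7 genes of skeletal muscle fibres were all above the dim limit and the 2 red blood cell genes with a probe set were not. All 6 slow fibre genes were higher in mini-muscle, with a median difference of 0.82, and Myh4, the myosin of the fastest fibres, was lower by -1.33. The mean over the slow fibre genes lay between 15.19 and 15.72 in mini-muscle and between 14.26 and 14.83 in regular-muscle. Of 5 fibroblast genes 3 were lower, of 3 tested macrophage genes 2 were lower, and of 7 tested endothelial genes 1, Pecam1, was higher at 0.50. No tested marker of adipocytes, Schwann cells, satellite cells or smooth muscle was called. Among 5 tested immediate early genes, which rise within minutes of stress or handling, Junb (4.0-fold, adjusted p = 0.00107) and Egr1 (1.49-fold, adjusted p = 0.0426) were higher. The regular-muscle mean of Junb, 8.01 ± 1.23 (SD), lay under the dim limit of 8.56, so its fold rests on weak signal. The mean over the 5 tested genes was 10.09 to 10.56 in mini-muscle and 9.25 to 10.18 in regular-muscle, so the groups overlapped. With the 2 dim genes of the list included, it was 9.45 to 9.94 and 8.84 to 9.32, without overlap. The part of fibre type, of other cell types and of handling in the differences below was not tested.

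In each group 1 array most often held the highest value of the tested members. Mini-muscle replicate 6 had the highest value of its group in 18 of 57 tested members and in 7 of 14 ER members, against 14.44% of all genes tested. Without it, 10 members were higher and 6 lower, and Hspa8, Hspd1, Cct3, Dnaja2 and Dnajc15 lost their calls, with adjusted p from 0.0561 for Dnaja2 to 0.0768 for Hspd1. Regular-muscle replicate 4 had the highest value of its group in 17 of 57 tested members, in 11 of the 27 Hsp70, Hsp90 and DnaJ members of the cytosol and in 5 of 9 mitochondrial members. It was the highest of its group in 17.75% of all genes tested. The array did not stand high for the families as a whole. Among 14 ER members it was the highest in 1. Its median gap to the mean of the other 5 was 0.03 over all tested members, against 0.05 for replicate 2 and 0.06 for replicate 3. Without regular-muscle replicate 4, 14 members were higher and 7 lower. Leaving out the highest regular-muscle array enlarges a positive difference by construction, as leaving out the highest mini-muscle array shrinks it. The larger differences given below without replicate 4, an array singled out by its high values, are therefore no added support for a rise.

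Of the cytosolic Hsp70 genes, 8 were tested, all with positive differences, from 0.21 to 1.68 with a median of 0.40, and 4 of them were called higher. Hspa2, an Hsp70 best known for its role in mouse sperm development and also present in other tissues, read 10.03 at its lowest, 10.24 at the median and 10.49 at its highest mini-muscle array, against 7.99, 8.59 and 9.02 in regular-muscle. The groups were separated by a full log2 unit between the lowest mini-muscle and the highest regular-muscle array. The mean was 10.23 ± 0.17 (SD, n = 6) in mini-muscle and 8.55 ± 0.34 in regular-muscle, a 3.21-fold difference (log2 1.68, SE 0.17, adjusted p = 8.55e-07 by limma), which placed Hspa2 at rank 81 of all 9097 genes by p. The regular-muscle mean lay just under the dim limit of 8.56, so that side of the comparison rests on weak signal.

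Hspa1a and Hspa1b are the stress-induced Hsp70 genes, near-identical neighbouring copies on chromosome 17 whose probe sets may not tell them apart. Hspa1a read 8.74, 9.26 and 9.89 at the lowest, median and highest mini-muscle array and 7.93, 8.53 and 8.79 in regular-muscle. Only the lowest mini-muscle array lay below the highest regular-muscle array. Its difference was 0.88 (SE 0.23, adjusted p = 0.00716), a 1.83-fold rise, and its regular-muscle mean of 8.40 ± 0.38 was also under the dim limit. Hspa1b read 9.68, 10.10 and 10.37 in mini-muscle and 9.08, 9.46 and 9.88 in regular-muscle, where replicate 4 was the highest. It was higher by 0.60 (SE 0.16, adjusted p = 0.00878) and by 0.68 without that array. Further bright probe sets of Hspa1b gave 0.76 and 0.64.

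Hspa8, the constitutive Hsc70, rose by 0.26 (1.20-fold, SE 0.09, adjusted p = 0.0296). Its arrays read 15.49, 15.62 and 15.84 in mini-muscle and 15.18, 15.34 and 15.73 in regular-muscle. The overlap came from regular-muscle replicate 4 at 15.73 alone, and without that array the difference was 0.33 (adjusted p = 0.00263). A second Hspa8 probe set gave 0.39 and another -0.09, and the call was lost without mini-muscle replicate 1 or 6 or regular-muscle replicate 1, 3, 5 or 6, with adjusted p up to 0.0737.

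The remaining cytosolic Hsp70 members did not pass the test. Hsph1, Hspa4 and Hspa4l belong to the Hsp110 branch, which exchanges the nucleotide of Hsp70. Hsph1 read 11.64, 11.96 and 12.36 in mini-muscle and 11.22, 11.44 and 12.59 in regular-muscle. Its highest value of all was regular-muscle replicate 4 at 12.59, the other regular-muscle arrays lying between 11.22 and 11.66. With all arrays its difference was 0.35 (SE 0.19, adjusted p = 0.179), and without replicate 4 it was 0.55 (adjusted p = 0.00274), so 1 array decides this call. Hspa4l differed by 0.39 (adjusted p = 0.265; 0.57 and 0.0694 without the same array). Hspa4 differed by 0.21 (adjusted p = 0.198), and a second probe set of Hspa4 went the other way, at -0.93 (adjusted p = 0.00411 over all single-gene probe sets). Hspa14, which works with Dnajc2 at the ribosome, differed by 0.42 (SE 0.18, adjusted p = 0.103), and by 0.52 without regular-muscle replicate 3 (adjusted p = 0.0451).

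In the Hsp90 family, Hsp90aa1, the inducible cytosolic form, rose and Hsp90b1, the ER form known as Grp94, did not pass the test. Hsp90aa1 read 12.58, 12.70 and 13.02 in mini-muscle and 11.73, 12.10 and 12.81 in regular-muscle. Regular-muscle replicate 4 stood among the mini-muscle arrays, and the 5 others, at 12.27 or less, lay below all of them. The means were 12.77 ± 0.18 and 12.15 ± 0.38 (SD, n = 6 each), a 1.53-fold rise (log2 0.62, SE 0.14, adjusted p = 0.00326). Without replicate 4 the difference was 0.75 (adjusted p = 6.9e-05), and the other probe sets gave 0.57 and 0.80. With all probe sets averaged it was 0.73 and did not pass (adjusted p = 0.177). Hsp90b1 differed by 0.02 (SE 0.09, adjusted p = 0.929). Hsp90ab1, the constitutive cytosolic form, was not analysed here.

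**Figure D2:**
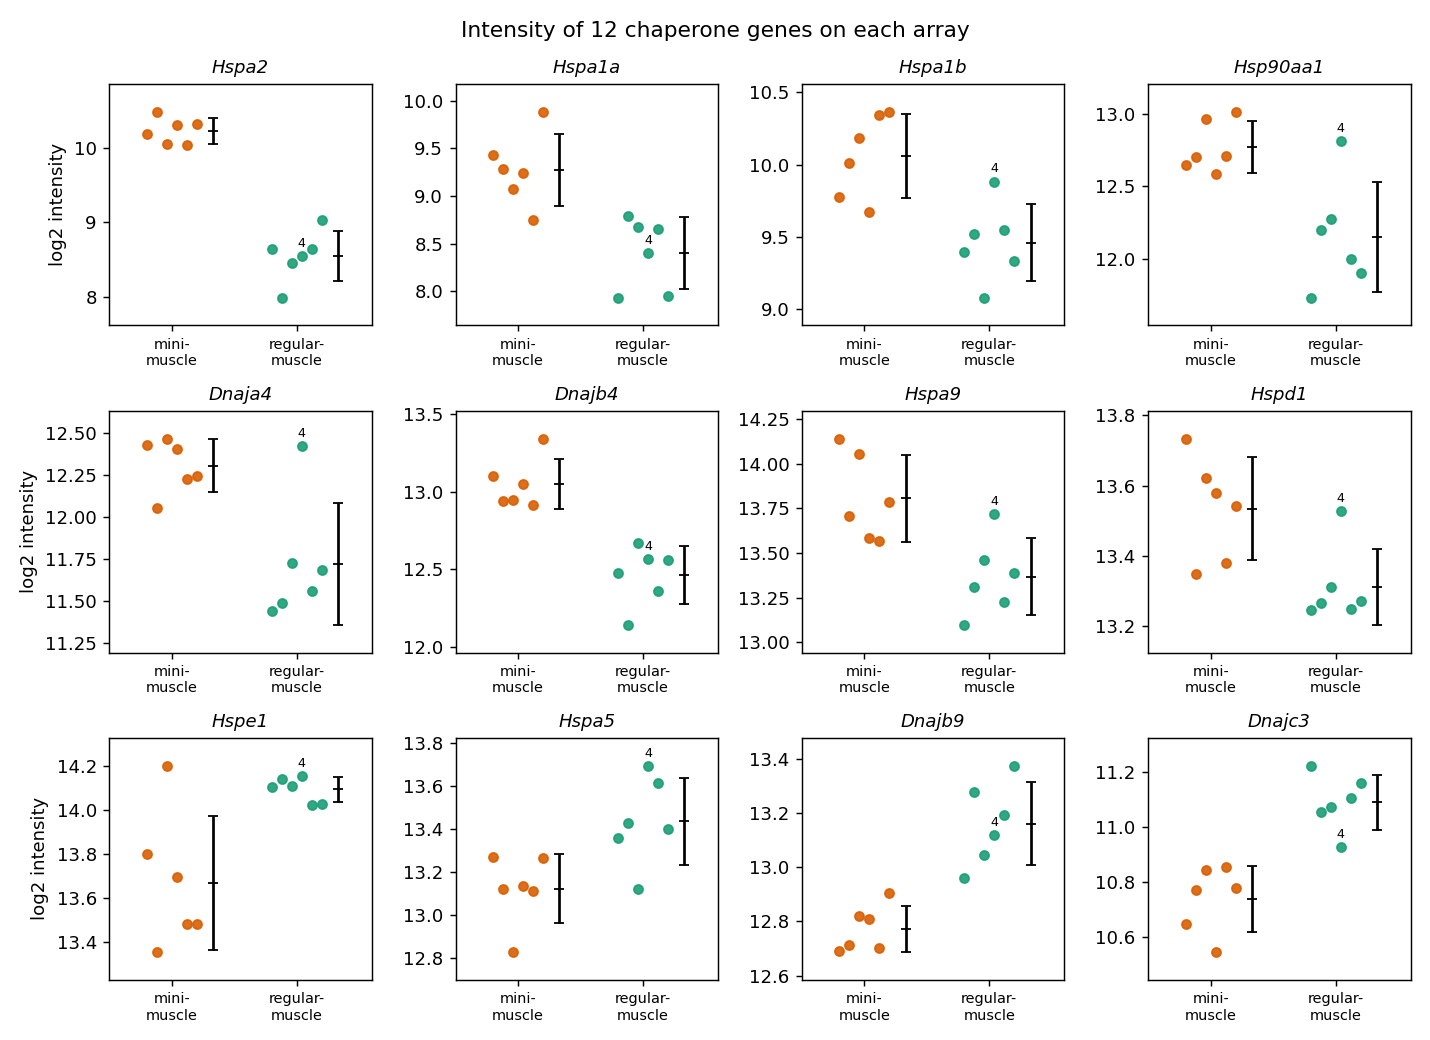
log2 intensity (y axis) of 12 chaperone genes on each mini-muscle and regular-muscle array (points), with the mean and SD beside each group of 6 and regular-muscle replicate 4 numbered. That array lies among the mini-muscle arrays for Hsp90aa1 at 12.81 and for Dnaja4 at 12.43, and the groups are apart for Hspa2, Dnajb4, Dnajb9 and Dnajc3.

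The DnaJ proteins, the partners that give Hsp70 its clients, were called in both directions. Of 35 tested DnaJ members 3 were higher and 5 lower, 22.9% of them against 26.7% of all genes, and their median difference was 0.11. By class, 1 of 4 class A members was higher and 1 lower, 1 of 9 class B members was higher and 1 lower, and 1 of 22 class C members was higher and 3 lower. The 3 that rose are all placed in the cytosol or on membranes facing it.

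Dnajb4, a class B partner of Hsp70, read 12.92, 13.00 and 13.34 in mini-muscle and 12.14, 12.52 and 12.67 in regular-muscle. No regular-muscle array reached the lowest mini-muscle array. The difference was 0.59 (SE 0.10, adjusted p = 0.000196), and the call held under every alternative. Dnaja4, a class A partner, read 12.05, 12.33 and 12.47 in mini-muscle and 11.44, 11.62 and 12.43 in regular-muscle. Of the regular-muscle arrays, replicate 4 at 12.43 again stood with the mini-muscle arrays, the others lying between 11.44 and 11.73. The difference was 0.58 (SE 0.14, adjusted p = 0.00384), 0.73 without that array, and the other probe sets of Dnaja4 gave 1.35 and 1.02. Dnajc27, a J protein fused to a Rab-like GTPase, read 11.07, 11.29 and 11.56 in mini-muscle and 10.61, 10.88 and 11.08 in regular-muscle. Its groups touched at 11.07 and 11.08, and it rose by 0.41 (SE 0.11, adjusted p = 0.00683).

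A pair of cytosolic or nuclear J proteins fell. Dnajc21, whose yeast counterpart acts in ribosome assembly, read 11.53, 11.85 and 12.15 in mini-muscle and 12.09, 12.12 and 12.27 in regular-muscle, a difference of -0.30 (SE 0.09, adjusted p = 0.0231). The spread lay mainly in mini-muscle, and the call was lost without regular-muscle replicate 6 (adjusted p = 0.0518) or with probe sets averaged (-0.11, adjusted p = 0.743). Dnaja2, a constitutive class A partner, differed by -0.20 (SE 0.07, adjusted p = 0.0464). That call was lost in 9 of the 12 fits that left out 1 array, with adjusted p up to 0.115. It held only without mini-muscle replicate 4 or 5 or regular-muscle replicate 1, and without regular-muscle replicate 4 the difference was -0.19 (adjusted p = 0.0741).

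The 27 DnaJ members that were not called had differences from -0.41 to 0.33 with SE from 0.08 to 0.30. Beyond 0.3 in size were Dnajc12, a J protein that serves aromatic amino acid hydroxylases, at -0.41 (adjusted p = 0.0732), Dnajc14, an ER membrane J protein, at 0.33 (adjusted p = 0.12) and Dnajc11, a protein of the mitochondrial membrane, at 0.32 (adjusted p = 0.113). Dnajc12 passed without regular-muscle replicate 1 (adjusted p = 0.0232) or 4 (adjusted p = 0.0479), and Dnajc14 without regular-muscle replicate 6 (adjusted p = 0.0172). Dnajc14 had other probe sets at 0.53 and 0.72, the latter passing the test over all single-gene probe sets (adjusted p = 0.00798). The stress-induced Dnajb1 differed by 0.17 (SE 0.19, adjusted p = 0.544), and Dnaja1 by 0.26 (adjusted p = 0.147, and 0.0368 without mini-muscle replicate 2).

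**Figure D3:**
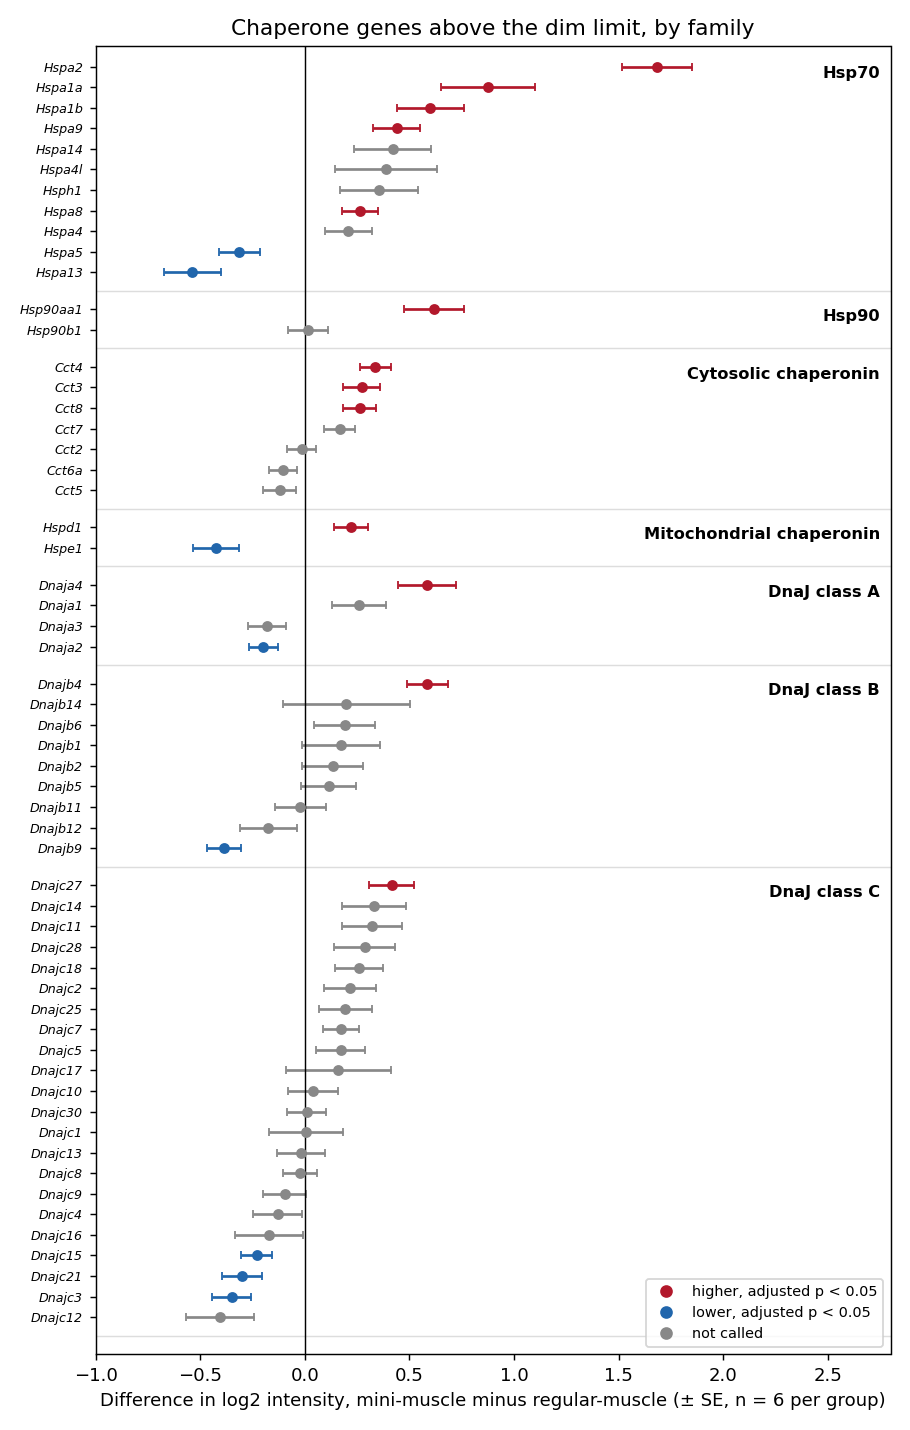
Difference in log2 intensity (mini-muscle minus regular-muscle, x axis) with its SE for the 57 tested chaperone genes (points), grouped by family and coloured by call. Most Hsp70 points lie right of 0, with Hspa2 farthest at 1.68, and most DnaJ points lie within 0.4 of 0.

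The promoters of the genes that rose were searched for the binding motif of heat shock factors, because these families are its textbook targets. A heat shock element was taken as a pair of units in either orientation, GAANNTTC or TTCNNGAA, each of which reads the same on both strands. RefSeq windows from 250 bases before to 50 bases after an annotated gene start (GRCm38.p6) were available for 58 members and 16 of the 21 called ones. Either pair was present in 15.1% of all 32851 promoter windows, in 18 of the 76 windows of the members (23.7%), and in 6 of the 12 windows of members called higher. The members called lower held a pair in 1 of 7 windows, and those tested but not called in 9 of 43. Genes with several annotated starts contribute overlapping windows. The 6 windows include those of Hspa1a and Hspa1b, which are near-identical, and that of Hspd1. The Hspd1 window shares 285 bases with that of Hspe1, the 1 among the members called lower, so these counts are not independent. The windows of Hspa1a, Dnaja4 and Dnajb4 are shown because all of these genes rose and each holds a pair, set in capitals; the pair begins at position -104 in Hspa1a, at -90 and -52 in Dnaja4 and at -14 in Dnajb4, counted from the annotated start. They lie at chr17:34972107-34972406 on the minus strand, chr9:54699309-54699608 on the plus strand and chr3:152193796-152194095 on the minus strand.
Hspa1a: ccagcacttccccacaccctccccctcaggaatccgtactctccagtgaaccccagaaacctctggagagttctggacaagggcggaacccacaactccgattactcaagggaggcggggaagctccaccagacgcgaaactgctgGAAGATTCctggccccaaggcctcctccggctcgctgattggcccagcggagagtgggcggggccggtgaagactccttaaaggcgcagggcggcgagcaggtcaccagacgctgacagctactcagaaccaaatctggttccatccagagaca
Dnaja4: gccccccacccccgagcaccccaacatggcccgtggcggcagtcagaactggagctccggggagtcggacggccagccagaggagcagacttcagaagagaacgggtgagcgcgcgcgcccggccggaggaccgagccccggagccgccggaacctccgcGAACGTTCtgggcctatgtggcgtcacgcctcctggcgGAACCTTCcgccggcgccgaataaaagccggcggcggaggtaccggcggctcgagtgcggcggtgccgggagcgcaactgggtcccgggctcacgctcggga
Dnajb4: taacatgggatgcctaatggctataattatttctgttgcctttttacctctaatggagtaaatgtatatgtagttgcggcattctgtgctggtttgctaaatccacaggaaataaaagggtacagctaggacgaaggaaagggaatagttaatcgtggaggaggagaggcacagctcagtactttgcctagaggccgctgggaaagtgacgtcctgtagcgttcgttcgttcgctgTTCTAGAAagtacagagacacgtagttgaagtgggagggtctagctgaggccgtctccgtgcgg
The window of Hspa1b, not printed, is identical to that of Hspa1a at 296 of 300 bases and holds its pair at the same position, -104. Dnajc27 also holds a pair, at -213. Hspa2, the member with the largest rise, has neither pair in its window at chr12:76404120-76404419, a statement about these 300 bases only. Windows were not available for Hsp90aa1, Hspa8, Hspa9, Hspa13 and Cct4 among the called members.

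**Figure D4:**
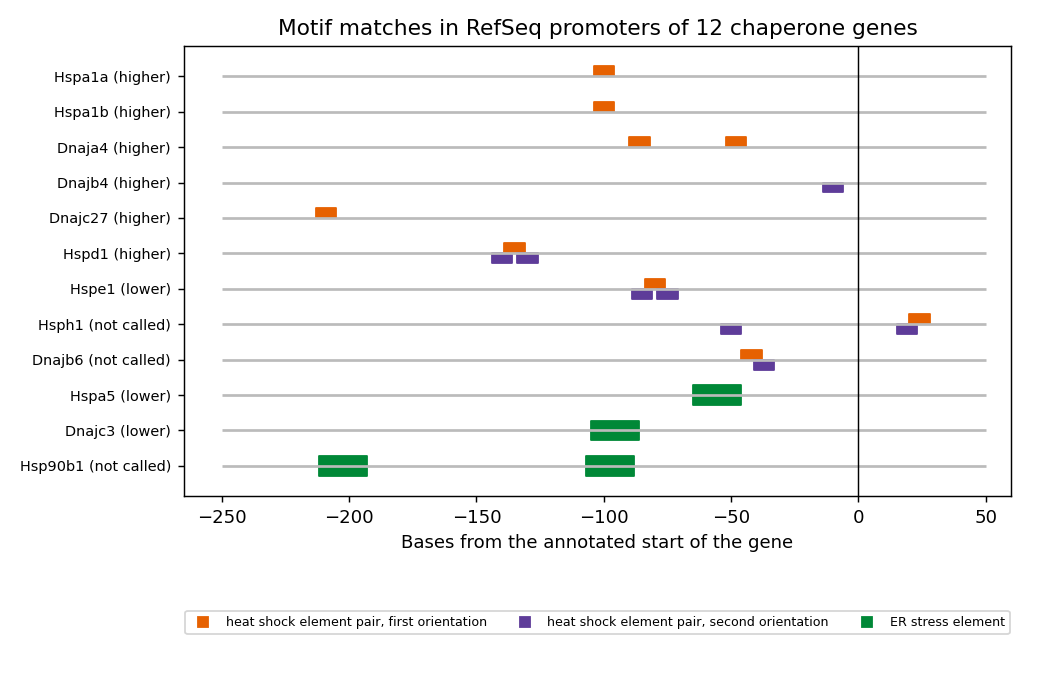
Positions of motif matches (boxes) in 1 RefSeq promoter window for each of 12 chaperone genes (rows, with the call), in bases from the annotated gene start (x axis). Boxes above the line are GAANNTTC pairs and those below it TTCNNGAA pairs. ER stress elements occur only in the rows of Hspa5, Dnajc3 and Hsp90b1, and Hspd1 and Hspe1 each show 3 overlapping pairs.

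In mitochondria the chamber and its lid had differences of opposite sign, but the call of the chamber was not stable. Hspd1, the chaperonin Hsp60, read 13.35, 13.56 and 13.73 in mini-muscle and 13.24, 13.27 and 13.53 in regular-muscle, where 5 arrays lay between 13.24 and 13.31 and replicate 4 reached 13.53. It rose by 0.22 (1.17-fold, SE 0.08, adjusted p = 0.0485), close to the threshold, and lost its call in 9 of the 12 fits that left out 1 array, with adjusted p up to 0.113. It kept the call without mini-muscle replicate 2 or 5 or regular-muscle replicate 4, at 0.0182 for the last. Hspe1, the lid Hsp10, read 13.36, 13.59 and 14.20 in mini-muscle and 14.03, 14.11 and 14.16 in regular-muscle. The regular-muscle arrays lay close together, and 5 of 6 mini-muscle arrays were below all of them, with replicate 3 above. Hspe1 fell by 0.43 (1.34-fold, SE 0.11, adjusted p = 0.00698), and a second probe set gave -0.26. With probe sets averaged, Hspe1 did not pass (-0.34, adjusted p = 0.0803). Hspd1 has 1 single-gene probe set, so averaging left its values unchanged, at 0.22. Its adjusted p of 0.0598 in that fit differs only through the fit and adjustment over the other genes. Hspd1 also lost its call with arrays centred on their medians, without a dim limit and without the intensity trend of the fit.

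Hspd1 and Hspe1 lie head to head and share a promoter, shown because its capitals hold the only heat shock elements found in the windows of both genes. The Hspd1 window (chr1:55087883-55088182, minus strand) and the Hspe1 window (chr1:55087898-55088197, plus strand) overlap by 285 bases, and the annotated starts lie 216 bases apart. The run of 3 overlapping pairs begins at -89 from the start of Hspe1 and at -144 from that of Hspd1.
Hspe1: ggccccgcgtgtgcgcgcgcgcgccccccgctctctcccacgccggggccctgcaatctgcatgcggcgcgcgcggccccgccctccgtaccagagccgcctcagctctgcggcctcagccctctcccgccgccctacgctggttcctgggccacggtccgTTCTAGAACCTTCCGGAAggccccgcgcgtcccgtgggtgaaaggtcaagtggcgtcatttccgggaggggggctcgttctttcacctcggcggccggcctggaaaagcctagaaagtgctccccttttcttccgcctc
Runs of at least 3 units, GAANNTTCNNGAA or TTCNNGAANNTTC, were present in 0.603% of all windows and in 6 of 76 windows of the members, those of Hspd1, Hspe1, Hsph1 and Dnajb6. Of these 4 genes 1 rose, 1 fell and 2 were not called.

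Hspa9, the mitochondrial Hsp70 (mortalin) that pulls proteins through the inner membrane, read 13.57, 13.75 and 14.14 in mini-muscle and 13.10, 13.35 and 13.72 in regular-muscle, with replicate 4 again the highest there. It rose by 0.44 (1.35-fold, SE 0.11, adjusted p = 0.00718). Further Hspa9 probe sets gave 0.44, 0.09 and 0.79, and the average of all gave 0.27 (adjusted p = 0.243). Dnajc15, a J protein of the inner membrane import machinery, differed by -0.23 (SE 0.07, adjusted p = 0.0276). Its arrays read 13.04, 13.17 and 13.28 in mini-muscle and 13.26, 13.40 and 13.52 in regular-muscle, and the groups barely overlapped. The call was lost without mini-muscle replicate 6 or regular-muscle replicate 3, 5 or 6, with adjusted p up to 0.0669. The other 5 mitochondrial members, all J proteins, were not called, and the median of all 9 was 0.01. Of 15 tested partners in mitochondrial folding and proteolysis, 1 was higher and 2 were lower with a median of 0.02. Those called were the protease Yme1l1 at -0.64 (adjusted p = 0.00105), the import channel Timm23 at -0.32 (adjusted p = 0.00141) and the protease Afg3l2 at 0.32 (adjusted p = 0.0324).

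By their brightest probe sets the 4 called ER members were lower. With probe sets averaged, of these Dnajb9 stayed lower, but it has 1 single-gene probe set, so averaging left its values unchanged. Hspa5 (-0.30, adjusted p = 0.0556) and Dnajc3 (-0.14, adjusted p = 0.452) did not pass, and Hspa13 turned higher. Dnajc14 (0.53) and Dnajc18 (0.53) were called higher, the latter with a probe set below the dim limit at 1.21. Hspa5, the ER Hsp70 BiP, read 12.83, 13.13 and 13.27 in mini-muscle and 13.12, 13.41 and 13.69 in regular-muscle. The groups overlapped through 1 low regular-muscle array at 13.12. Hspa5 fell by 0.31 (1.24-fold, SE 0.10, adjusted p = 0.0233), and the call was lost without regular-muscle replicate 4 (-0.26, adjusted p = 0.054), regular-muscle replicate 5 or mini-muscle replicate 3, with adjusted p up to 0.0569. Other Hspa5 probe sets above the dim limit gave -0.52 (adjusted p = 0.037 over all single-gene probe sets) and -0.07. Dnajb9, the J protein ERdj4 that acts with BiP, read 12.69, 12.76 and 12.90 in mini-muscle and 12.96, 13.16 and 13.37 in regular-muscle. The groups did not overlap, and Dnajb9 fell by 0.39 (1.31-fold, SE 0.08, adjusted p = 0.00144). Dnajc3, the J protein p58IPK that also inhibits the eIF2 alpha kinases, read 10.55, 10.78 and 10.85 in mini-muscle and 10.93, 11.09 and 11.22 in regular-muscle. These groups were likewise apart, and the difference was -0.35 (SE 0.09, adjusted p = 0.00864), but 3 other probe sets gave 0.27, -0.17 and 0.07.

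Hspa13, a small Hsp70-like ATPase of microsomes, gave no settled direction. Its brightest probe set read 9.67, 9.92 and 10.15 in mini-muscle and 9.88, 10.54 and 10.68 in regular-muscle, a difference of -0.54 (SE 0.14, adjusted p = 0.00667). A second probe set above the dim limit gave 2.79 (adjusted p = 0.00256 over all single-gene probe sets) and the remaining one 0.36. With the mean of all its probe sets the difference was 1.13 (adjusted p = 0.000361), the opposite of the direction counted above. It was the only tested member with probe sets that passed in opposite directions.

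The promoters of Hspa5 and Dnajc3 are shown because these genes were called lower and hold, in capitals, the ER stress element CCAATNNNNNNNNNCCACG, which the factors of the unfolded protein response bind. Searched on both strands, this element was present in 0.119% of all windows and in those of 3 members, Hspa5 at -65, Dnajc3 at -105 and Hsp90b1 at -212 and -107, all of the ER. Hsp90b1 had a difference of 0.02. The Hspa5 window lies at chr2:34771840-34772139 and the Dnajc3 window at chr14:118937682-118937981, both on the plus strand.
Hspa5: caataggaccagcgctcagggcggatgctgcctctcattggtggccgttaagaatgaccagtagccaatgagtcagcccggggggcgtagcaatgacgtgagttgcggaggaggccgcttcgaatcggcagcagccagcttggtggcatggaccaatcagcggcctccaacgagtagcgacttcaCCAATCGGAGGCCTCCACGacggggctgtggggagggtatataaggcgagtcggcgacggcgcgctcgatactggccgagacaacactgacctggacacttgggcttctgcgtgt
Dnajc3: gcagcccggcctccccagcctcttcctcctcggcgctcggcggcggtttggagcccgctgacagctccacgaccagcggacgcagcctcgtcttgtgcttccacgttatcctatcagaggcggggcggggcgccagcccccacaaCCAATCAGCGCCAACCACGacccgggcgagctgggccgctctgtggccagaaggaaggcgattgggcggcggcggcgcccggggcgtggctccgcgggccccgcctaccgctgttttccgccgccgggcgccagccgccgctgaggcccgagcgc
Other genes of ER folding and stress did not move in 1 direction. Of 19 tested, 4 were higher and 3 lower with a median of -0.03. Atf4, a transcription factor of the stress response, fell by 0.43 (adjusted p = 0.000407) and Sil1, the nucleotide exchange factor of BiP, fell by 0.49 (adjusted p = 0.0133). Canx, the lectin chaperone calnexin, rose by 0.36 (adjusted p = 0.00231).

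The cytosolic chaperonin Cct had 3 of 7 tested subunits higher and 0 lower, with a median of 0.17. With arrays centred on their medians 1 of 7, Cct4, was higher (adjusted p = 0.0485). With probe sets averaged 0 of 7 were, at 0.25 for Cct4 (adjusted p = 0.248), 0.12 for Cct3 (adjusted p = 0.693) and 0.45 for Cct8 (adjusted p = 0.515). The averages of Cct3, Cct4 and Cct8 all take in probe sets below the dim limit. Cct4 read 13.78, 13.94 and 14.03 in mini-muscle and 13.44, 13.56 and 13.76 in regular-muscle. The groups barely missed each other, and Cct4 rose by 0.34 (1.26-fold, SE 0.07, adjusted p = 0.00232), with other probe sets above the dim limit at 0.48, 0.44, 0.51 and 0.29. Cct3 rose by 0.27 (SE 0.09, adjusted p = 0.0271) and Cct8 by 0.26 (SE 0.08, adjusted p = 0.0188). Cct3 lost its call without mini-muscle replicate 6 or regular-muscle replicate 2 or 5, with adjusted p up to 0.0712. The groups of both overlapped, at 13.12 to 13.59 against 12.88 to 13.27 for Cct3 and at 12.38 to 12.55 against 12.09 to 12.41 for Cct8. Cct7 differed by 0.17 (adjusted p = 0.107), Cct2 by -0.02 (adjusted p = 0.901), Cct6a by -0.10 (adjusted p = 0.293) and Cct5 by -0.12 (adjusted p = 0.296), although all of these are subunits of the same ring.

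The genes that work with the chaperonin had a negative median. Of 10 tested partners 1 was higher and 4 were lower, with a median of -0.26. Tcp1, the remaining subunit of the ring, whose symbol lies outside the rule for members, rose by 0.18 (adjusted p = 0.032). Vbp1, a subunit of prefoldin, which hands actin and tubulin to the chaperonin, fell by 0.54 (adjusted p = 0.00036). The phosducin-like cofactor Pdcl3 fell by 0.49 (adjusted p = 7.4e-05) and Txndc9 by 0.42 (adjusted p = 0.00571).

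Partners of Hsp70 and Hsp90 were called in both directions. Of 11 tested exchange factors and adaptors of Hsp70, 4 were higher and 1 was lower. Stip1, which links Hsp70 to Hsp90, rose by 0.42 (adjusted p = 0.00555) and Bag2 by 0.47 (adjusted p = 0.00671), whereas St13 fell by 0.36 (adjusted p = 0.0117). Of 14 tested Hsp90 co-chaperones, 4 were higher and 1 was lower. Unc45b, the muscle chaperone of myosin, rose by 0.32 (adjusted p = 0.00272) without overlap of the groups, Cdc37, which loads kinases, by 0.47 (adjusted p = 0.0039) and the phosphatase Ppp5c by 0.33 (adjusted p = 0.0145). Neither tested gene of the heat shock factor list passed: Hsf4 differed by -0.22 (adjusted p = 0.633) and Hsbp1 by -0.10 (adjusted p = 0.409). Hsf1 was not analysed here.

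**Figure D5:**
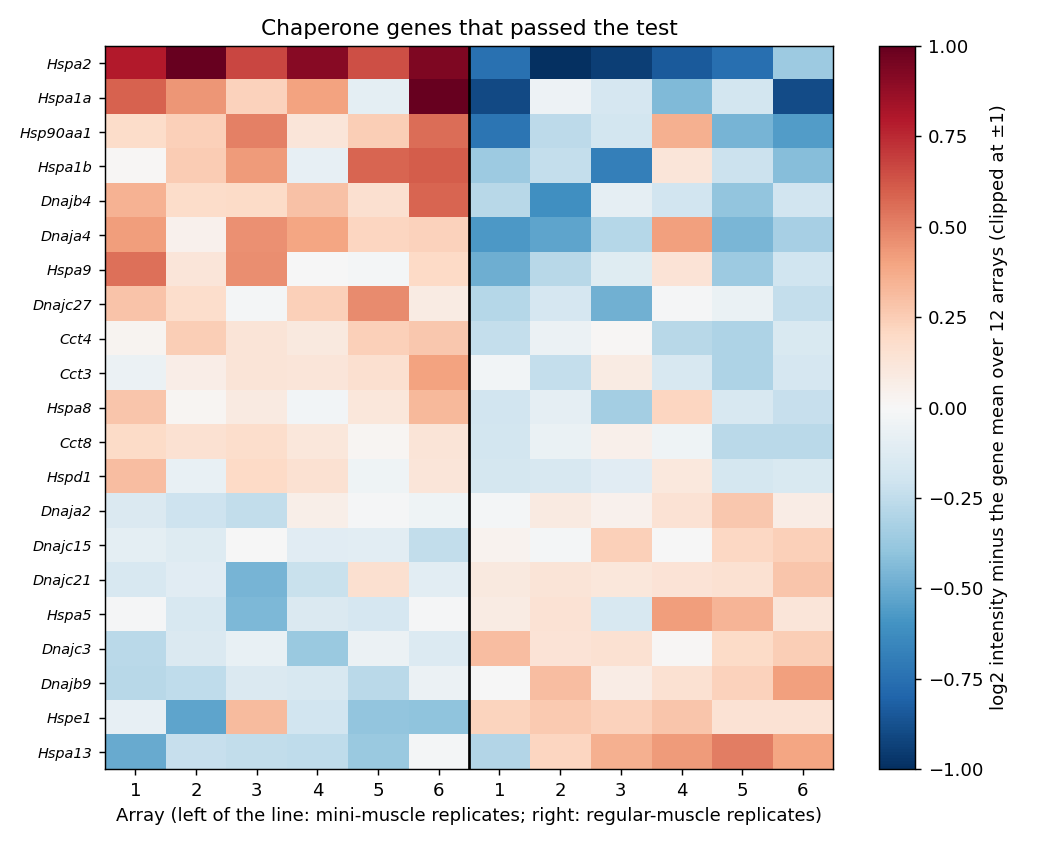
log2 intensity minus the gene's mean over the 12 arrays (colour, limited to 1 in size) for the 21 called chaperone genes (rows, by difference) on each array (columns, mini-muscle left and regular-muscle right of the line). Regular-muscle replicate 4 is on the high side for Hsp90aa1, Dnaja4 and Hspa8, and mini-muscle replicate 3 is high for Hspe1 at 14.20.

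Other probe sets of the called members mostly had the sign of the main one, but not always its size. Averaging all probe sets of a gene cost 10 called members their call and reversed 1. Among the called members 15 had other probe sets above the dim limit, 34 in all, and 29 of these had the sign of the main probe set. A single bright probe set stands behind the other 6 called members. The 14 members below the dim limit were Cct6b, Cct8l1, Dnajb3, Dnajb7, Dnajb8, Dnajb13, Dnajc5b, Dnajc5g, Dnajc6, Dnajc22, Dnajc24, Hspa1l, Hspa12a and Hspa12b. Their means lay between 6.20 and 8.16 with group SDs from 0.43 to 1.84, their groups overlapped in every case, and no call was made for them. The members nearest above the limit were Dnajb14 and Hspa4l, at means of 8.57 and 8.58.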

How the data were processed

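Gene expression was measured on 12 Affymetrix arrays, 1 animal each, from 5 µg of total RNA per the labels' protocols. The deposited values are linear probe set intensities made by the authors with MAS5, per the submitters' processing notes. For MAS5, no version or setting is given in the sources used here. MAS5 scales each array to a target, and the trimmed mean of every deposited array was 800. Array medians lay between 211.9 and 275.2, and no pair of arrays was identical. Arrays have no read depth, and their number limits the precision.

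The intensities were taken to log2 without further scaling. The brightest single-gene probe set represented each gene, and 9097 of 18194 genes at or above the median of all gene means (log2 8.56) were kept. Groups were compared with limma 3.58.1 in R 4.3.3 (lmFit, eBayes with an intensity trend, two-sided), with Benjamini-Hochberg adjustment and calls under 0.05. The fit was tested on simulated data. Of 45101 probe sets, 34958 name 1 gene, 932 several and 9211 none. Of the members' symbols, 71 of 71 matched a RefSeq gene identifier. Dnajc19 shares its probe sets with another gene and was not analysed here.

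Members and gene lists were chosen with earlier results of these data known. Named were all Hsp70, Hsp90 and chaperonin members, called DnaJ members, uncalled ones over 0.3 in size, and up to 3 partners per list with the smallest adjusted p. Dnajb1, Dnaja1, Dnajc18, Tcp1 and single marker genes were named after their values were seen. Alternatives were quantile normalization, median centring, the mean of all probe sets, other dim limits, an offset of 64, other eBayes settings and leaving out each array. The mean of all probe sets took in those under the dim limit.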

Additional observations from a re-analysis of the deposited data

Results flagged for a closer look

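Of 114 groups of 6 arrays examined (57 members in each of 2 groups), 10 held 1 array whose gap to the nearest other exceeded 0.625 of the group's range; chance flags about 1 group in 20. In 4 of them the array was regular-muscle replicate 4: Hsph1 read 12.59 there against 11.22 to 11.66 on the other 5, Dnaja4 read 12.43 against 11.44 to 11.73, Hspa4l read 9.299 against 7.956 to 8.397, and Hspd1 read 13.53 against 13.24 to 13.31. Leaving that array out changed the call of Hsph1, as given above.

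Mini-muscle replicate 3 stood apart in 3 groups. It read 12.55 for Dnaja3, the mitochondrial J protein Tid1, against 12.18 to 12.29, 11.3 for Dnajb6, a J protein mutated in a human muscular dystrophy, against 11.92 to 12.27, and 12.83 for Hspa5 against 13.11 to 13.27. The others were Dnajc10 at 10.57 in regular-muscle replicate 3 against 11.08 to 11.25, Dnajc21 at 12.27 in regular-muscle replicate 6 against 12.09 to 12.14, and Hspa13 at 9.876 in regular-muscle replicate 1 against 10.38 to 10.68.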

How the results depend on the processing

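The count of members higher in mini-muscle, 13, lay between 9 and 14 under the 8 alternatives and between 10 and 14 when 1 array was left out, and the median difference stayed between 0.12 and 0.19. The count of lower members, 8, was 3 with arrays centred on their medians, 3 with the mean of all probe sets and 5 without the intensity trend. Leaving out 1 array gave 5 to 9 lower members, and 5 without regular-muscle replicate 5 or 6. Over all genes, centring gave 990 higher and 651 lower, and the mean of all probe sets 862 and 681, against 1356 and 1070. Averaging its probe sets turned Hspa13 to 1.131.

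Of the 21 called members, 7 kept their call under every alternative in which they were tested and without each array: Hspa2, Hspa1a, Hspa1b, Dnajb4, Dnaja4, Dnajb9 and Dnajc27 (Hspa2 and Hspa1a fell out under the stricter dim limit). Without each array in turn, 14 of 21 kept their call. The cause of the changes in calls was not tested. Hspa2, Hspa1a and Dnajb9 have 1 single-gene probe set each, so averaging probe sets could not change their values. Signal near the dim limit restricts Hspa1a and Hspa2 in regular-muscle. No paired analysis was possible because the labels give the arrays no shared replicate numbers.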
